A study of Sus scrofa with 48 samples.

Results

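The mitochondrial ribosomal proteins were followed in whole blood of pigs divergently selected for residual feed intake (RFI), a measure of how much more or less a pig eats than pigs of its size and growth rate are calculated to need. Low RFI pigs are the feed-efficient line. A probe was taken as a member when the array gives it a gene name of the MRPL or MRPS series with a number and when the authors retained its spot. This rule found 75 probes for 55 genes among the 37113 retained probes and 9736 named genes. The line and diet values had no part in the rule, but the authors retained spots by their measured quality. The 4 groups were low RFI pigs fed the HF diet, low RFI pigs fed the LF diet, high RFI pigs fed the HF diet and high RFI pigs fed the LF diet, with 12 pigs in each. All were French Large White castrated males sampled at 132 days of age, fed ad libitum either a diet rich in fat and fiber (HF) or a diet low in both (LF). RNA of each pig was read on 1 single-colour array, so each value is that of 1 animal. Values are log2 intensities with the median of the array set to 0, and 24 pigs per line were compared.

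Mitochondria translate the few messages of their own genome with a ribosome of their own. Its RNA is transcribed inside the organelle, while all of its proteins are encoded in the nucleus, made by the cytosolic ribosome and imported. The MRPL genes encode mainly proteins of the large subunit, which forms the peptide bond, and the MRPS genes mainly proteins of the small subunit, which reads the message. Many of these proteins descend from bacterial ribosomal proteins, and others were acquired in the mitochondrial lineage. The products of this ribosome are core subunits of the respiratory chain and of the ATP synthase. In blood, leukocytes, platelets and young reticulocytes hold mitochondria, whereas mature red cells do not.

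The members covered most of both subunits. Of the 55 genes, 36 encode large subunit proteins and 18 encode small subunit proteins. MRPS18A and MRPS30 were counted in the large subunit, where their products lie in spite of their names. MRPS36 carries a name of the series but its product is now assigned to the oxoglutarate dehydrogenase complex, and it was kept as a member and counted in neither subunit. For 42 genes a single probe met the rule and 13 genes had several, up to 6 for MRPL18. All 75 probes are 60 bases long, and 74 of them were well above background on all 48 arrays. The exception was the probe of MRPL13, which passed on 43 arrays. Another 8 probes with MRP names were not retained by the authors, which leaves MRPL38, MRPL39 and MRPS35 with no member probe.

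The probes that carry the main results are shown as the array files give them, 5′ to 3′. The MRPS31 and MRPL9 pairs and the MRPL15 probe belong to the genes with the clearest line difference, and the MRPS2 probe to a gene whose value rested on a single pig. Each of the first 5 probes has exactly 1 forward reading frame without a stop codon. Array-wide annotation of the probes to the genome was not used here, so no coordinates are given.
MRPS31 probe A_72_P307888: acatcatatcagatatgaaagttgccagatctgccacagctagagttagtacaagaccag
MRPS31 probe O11855: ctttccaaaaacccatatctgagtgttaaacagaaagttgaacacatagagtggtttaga
MRPL9 probe A_72_P406268: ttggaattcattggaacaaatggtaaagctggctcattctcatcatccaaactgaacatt
MRPL9 probe O9386: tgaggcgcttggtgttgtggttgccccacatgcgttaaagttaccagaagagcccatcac
MRPL15 probe O10356: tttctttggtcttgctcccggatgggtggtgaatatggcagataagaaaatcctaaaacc
MRPS2 probe O6203: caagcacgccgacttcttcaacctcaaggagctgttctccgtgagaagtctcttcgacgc

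The median signal of the retained spots of an array, divided by their median background, ran from 5.91 to 16.0 over the 48 arrays. No non-control reading was saturated. The arrays lay on 6 slides, with 2 pigs of each group on each slide. In the table of the authors, the column of high RFI HF replicate 1 repeats 1 value in 37089 of its 37113 entries, and it was rebuilt here from the scanner file of that pig. Marker genes of red cells, T cells, B cells, natural killer cells, monocytes, neutrophils and platelets were also read. Each was well above background in at least 91.7% of its readings. Only retained spots were counted, which the authors had chosen by measured quality, and markers without such a spot dropped out. The share is thus no check of the cells in the samples. In a bulk sample of this kind, fewer cells of a type and less RNA per cell cannot be told apart.

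Genes of the mitochondrial ribosome mostly stood somewhat higher in blood of low RFI pigs. The log2 fold change was positive for 50 of 55 genes, where 64.0% of all named genes were positive, and its median was 0.06 against 0.03 over all named genes. The 4 genes past the criterion of the methods (P-value under 0.01 and FC above 1.1) were MRPS31, MRPL9, MRPL15 and MRPL17, all overexpressed in low RFI pigs, and no member was underexpressed. Two-sided P-values were taken from limma fitted to all genes. After adjustment over all genes, 2 members (3.64%) passed 0.05, both upward, where 3.33% of all genes passed and 1.63% did so upward. The 4 past the criterion of the methods are 7.27% of the members, beside 6.09% of all genes and 3.17% upward. At a P-value under 0.05, 8 members (14.5%) were higher, where 7.47% of all genes were. Each upward share of the members was above that of all genes, on counts of 2, 4 and 8 genes, and the difference in shares was not tested. The members vary together from pig to pig, so the 50 positive values are not 50 independent observations.

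**Figure D1:**
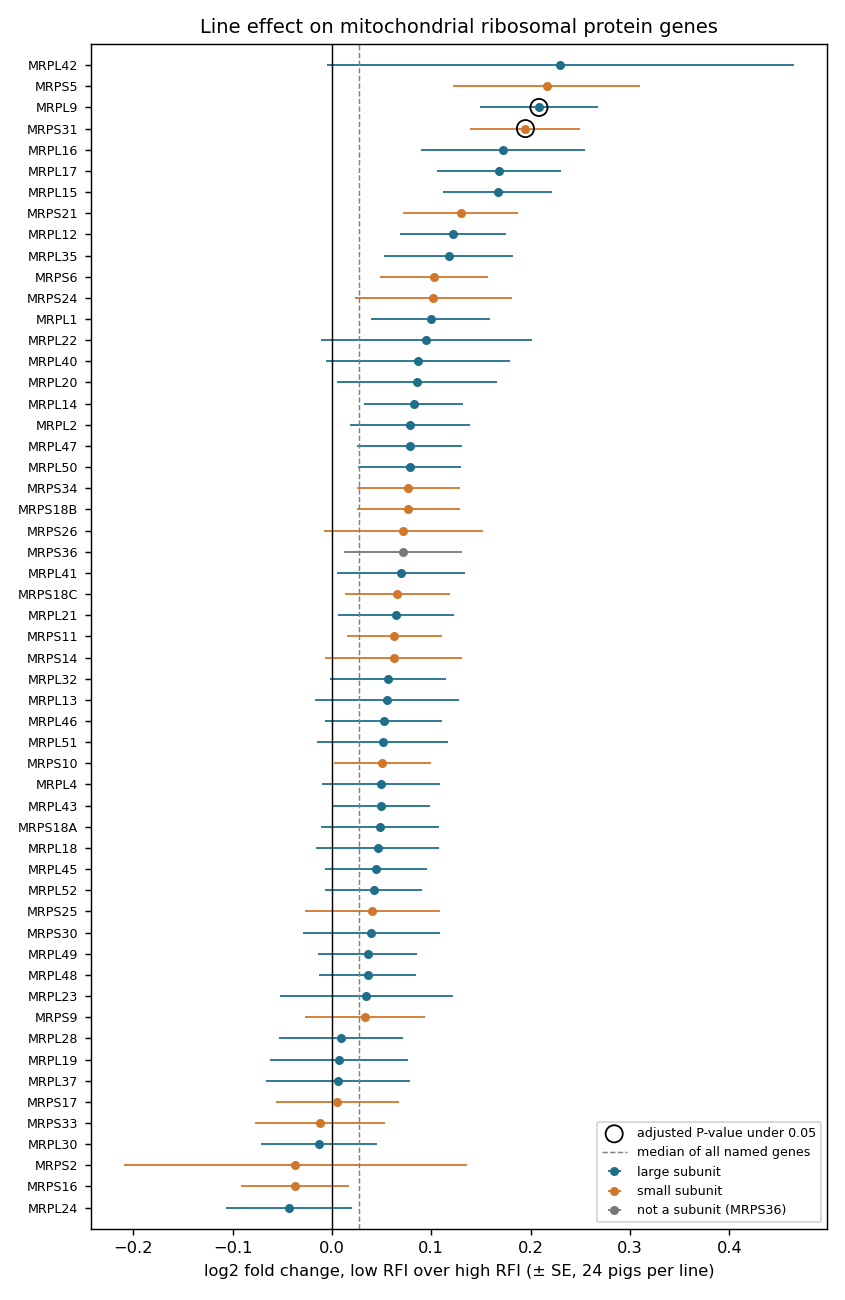
Log2 fold change of low RFI over high RFI pigs for each of the 55 member genes, in order of size, with SE over 24 pigs per line. Colours give the subunit, circles mark the 2 genes with an adjusted P-value under 0.05 (MRPL9 and MRPS31), and the dashed line is the median of all named genes at 0.03. MRPL42 and MRPS2 have the widest bars.

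MRPS31, a small subunit protein of the mitochondrial lineage, had the lowest P-value of the members. The low RFI values ran from 0.34 to 1.09 around a median of 0.65. The high RFI values ran from 0.19 to 0.81 around a median of 0.42. The ranges overlapped, but 21 of 24 low RFI pigs were above the high RFI median and 4 were above every high RFI pig. The FC was 1.14 (log2 fold change 0.19, SE 0.055, adjusted P-value 0.0353), and low RFI pigs were higher on 6 of 6 slides. Both probes, shown above, gave like values, with log2 fold changes of 0.19 for A_72_P307888 and 0.20 for O11855.

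MRPL9, a large subunit protein of bacterial descent, showed a difference of like size. Its values lay between 2.32 and 3.101 in low RFI pigs, around a median of 2.73. The high RFI pigs spanned 2.18 to 3.103, with a median of 2.49. Again 21 of 24 low RFI pigs exceeded the high RFI median, and the highest pig of each line stood at the same level. The FC reached 1.16 (log2 fold change 0.21, SE 0.060, adjusted P-value 0.0384), and the difference was positive on 6 of 6 slides. Its probe O9386 was the only member probe with an adjusted P-value under 0.05 over all probes (log2 fold change 0.20, adjusted P-value 0.0337), where 2.77% of all probes passed. Without high RFI HF replicate 1, the pig with the rebuilt column, the gene had a log2 fold change of 0.20 and an adjusted P-value of 0.0533. When only the brightest probe of each gene was used, the adjusted P-value was 0.120 for MRPL9 and 0.0591 for MRPS31, so neither passed. Of 14 other settings, MRPL9 passed the adjustment in 10, with adjusted P-values up to 0.269, and MRPS31 in 12, up to 0.862.

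MRPL15 and MRPL17, large subunit proteins of bacterial descent, passed the criterion of the methods but not the adjustment over all genes. MRPL15 had a median of 0.89 in low RFI pigs (0.52 to 1.24) and 0.70 in high RFI pigs (0.41 to 1.08), with an FC of 1.12 (SE of the log2 value 0.055, P-value 0.00385, adjusted P-value 0.0850). For MRPL17 the medians were 1.48 (1.104 to 1.85) and 1.30 (0.84 to 2.02), with an FC of 1.12 (SE 0.062, P-value 0.00975, adjusted P-value 0.152). The single highest MRPL17 value was that of a high RFI pig, although 21 of 24 low RFI pigs exceeded the high RFI median. Both genes were higher in low RFI pigs on 6 of 6 slides. In 2 of 14 other settings each passed the adjustment, MRPL15 with normexp (0.0397) and with the replicate block (0.0441), and MRPL17 with the processed signal at the array median (0.0423) and at the 75th percentile (0.0319). At the level of probes, 5 of 75 member probes passed the criterion, all upward (both of MRPS31, both of MRPL9 and that of MRPL15), beside 5.78% of all probes and 2.7% upward.

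**Figure D2:**
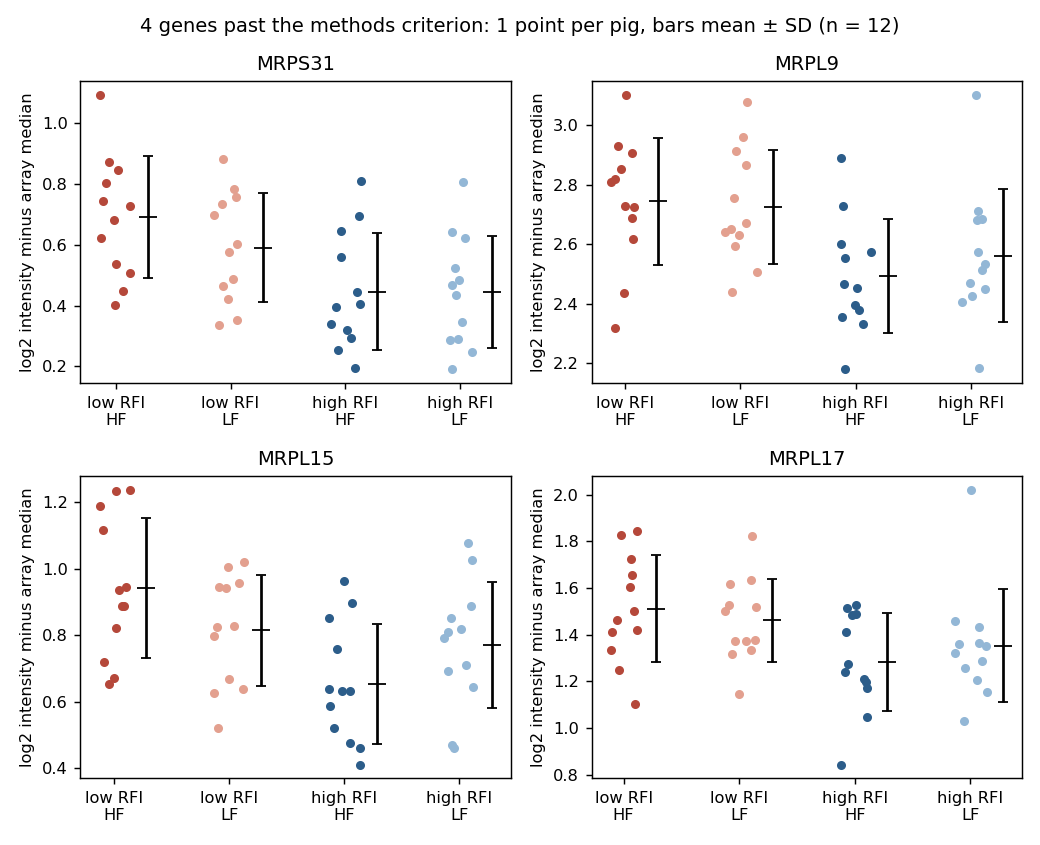
Values of the 4 genes past the criterion of the methods, 1 point per pig, as log2 intensity minus the array median, with the mean ± SD of 12 pigs beside each group; each panel has its own axis. In each panel the low RFI groups sit higher on average, and the ranges of the groups overlap.

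Among the other genes at the top of the order, none passed the criterion of the methods. MRPS5, the small subunit counterpart of bacterial S5, differed by 0.22 (SE 0.094, adjusted P-value 0.268), with single pigs from 1.002 to 2.21 in low RFI pigs and from 0.62 to 2.01 in high RFI pigs. MRPL16, a large subunit protein of bacterial descent, had 0.17 (SE 0.082, adjusted P-value 0.343). MRPS21, MRPL12 and MRPL35 had log2 fold changes of 0.13, 0.12 and 0.12, with adjusted P-values of 0.288, 0.268 and 0.476. MRPL12 forms the stalk of the large subunit that recruits translation factors, and its values were higher in low RFI pigs on 6 of 6 slides.

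At the other end, no member was clearly lower in low RFI pigs. The 5 genes with a negative log2 fold change were MRPL24 with -0.04, MRPS16 with -0.04, MRPS2 with -0.04, MRPL30 with -0.01 and MRPS33 with -0.01, and none had a P-value under 0.05. MRPS17, MRPL37, MRPL19, MRPL28 and MRPS9 were next, between 0.01 and 0.03. MRPL19 and MRPL28 are large subunit proteins of bacterial descent like MRPL9, so that members of the same class stood at both ends of the order.

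The members were also described by subunit and by descent of the protein. The median log2 fold change was 0.06 for the 36 large subunit genes, of which 34 were higher in low RFI pigs, and 0.06 for the 18 small subunit genes, of which 15 were higher. It was 0.07 for the 34 proteins of bacterial descent and 0.05 for the 20 of the mitochondrial lineage. A P-value under 0.05 was found for 7 of the 34 genes of bacterial descent and for 1 of the other 20, MRPS31, beside 7.47% of all genes upward and 64.0% positive. MRPS18A and MRPS18B, relatives of bacterial S18 that lie at other places of the ribosome, were counted with the mitochondrial lineage. No test of these class differences was made.

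MRPL42 and MRPS2 stood out for a single pig. The highest log2 fold change of all members was that of MRPL42, a large subunit protein, at 0.23, but with an SE of 0.235 and a P-value of 0.333. Its probe read -1.46 in high RFI HF replicate 7, while the other 47 pigs lay between 3.19 and 4.45. On the same array the MRPS2 probe, shown above, read 1.83, against -2.42 to -1.40 in the other pigs. No other member probe had a reading more than 3 log2 units from its median. That array held 66 retained probes at such a distance, where high RFI LF replicate 1 held 95 and the other 46 arrays at most 34; the cause was not tested. Without this pig the log2 fold change of MRPL42 was 0.01 (SE 0.098). That of MRPS2, the small subunit counterpart of bacterial S2, became 0.13 (SE 0.056, P-value 0.0208, adjusted P-value 0.238). With all pigs kept, 20 of 24 low RFI pigs were above the high RFI median of MRPS2. Its probe was dim, at a median of 2.42 times the local background. The rank of both genes in the order of the line effect thus rested on that pig.

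The line difference was also followed within each diet, since the groups share no pigs there. Under the HF diet the median of the 55 genes was 0.12, with 48 genes higher in low RFI pigs, beside 0.01 and 54.2% over all named genes. Under the LF diet the median was 0.02 with 34 genes higher, beside 0.02 and 58.6%. The criterion of the methods was passed under HF by MRPL15, MRPL9, MRPS31 and MRPS21, all upward (3.82% of all genes, 2.21% upward), and under LF by no member (3.16% of all genes). In limma no member had an adjusted P-value under 0.05 within either diet, where 1.02% of all genes under HF and 0.329% under LF did. At a P-value under 0.05, 10 members were higher under HF (6.32% of all genes) and none differed under LF (7.58% of all genes).

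Seen from the diet, the members were on balance higher under HF in low RFI pigs and lower under HF in high RFI pigs. In low RFI pigs the median HF over LF log2 fold change was 0.04, with 46 of 55 genes higher under HF (53.0% of all named genes), and MRPS21 alone had a P-value under 0.05 (1.59% of all genes). In high RFI pigs it was -0.05, with 12 genes higher (53.4% of all named genes) and no member with a P-value under 0.05 (2.74% of all genes). The difference of these differences, the interaction of line and diet, was tested gene by gene in the same limma fit. No member had an interaction P-value under 0.01, where 0.205% of all genes did, and 1 had a P-value under 0.05 (2.34% of all genes). At the level of probes none passed 0.01, beside 0.264% of all probes. The median interaction was 0.10, and 45 of 55 genes were positive beside 49.9% of all named genes. The 70 cytosolic ribosomal proteins had the same pattern, with a median interaction of 0.11 and 62 positive. Their HF over LF median was 0.05 in low RFI pigs (59 higher) and -0.05 in high RFI pigs (11 higher). Markers of red cells and neutrophils had interactions of the opposite sign. In high RFI pigs the red cell markers were higher under HF for 11 of 11 genes (median 0.27) and the neutrophil markers for 6 of 6 (median 0.83). In low RFI pigs the red cell markers were higher under HF for 2 of 11 (median -0.12) and the neutrophil markers for 4 of 6 (median 0.03). Their median interactions were -0.41 and -0.67, with no gene positive in either list and none with an adjusted P-value under 0.05 in limma. The signal over background of the arrays had a median of 11.2 in low RFI pigs fed HF, 10.5 in low RFI pigs fed LF, 10.9 in high RFI pigs fed HF and 11.1 in high RFI pigs fed LF, and its part was not tested. The interaction of the platelet markers was positive for 0 of 4 genes (median -0.19). T cell markers were positive for 8 of 8 (median 0.08) and B cell markers for 4 of 5 (median 0.17), as most members were. Natural killer and monocyte markers were positive for 3 of 5 (median 0.04) and 2 of 5 (median -0.09). The part of these cells in the pattern of the members was not tested.

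The gene with the lowest interaction P-value was MRPL15. Under HF its median was 0.91 (0.65 to 1.24) in low RFI pigs and 0.63 (0.41 to 0.96) in high RFI pigs. Under LF it was 0.83 (0.52 to 1.02) and 0.80 (0.46 to 1.08). The line difference was 0.29 under HF (adjusted P-value 0.0509) and 0.04 under LF (adjusted P-value 0.888), and all 12 low RFI pigs fed HF exceeded the median of the high RFI pigs fed HF. The interaction was 0.24 (SE 0.110, P-value 0.0310, adjusted P-value 0.882), so the line difference was not shown to depend on the diet. MRPL49, MRPS21, MRPL35 and MRPL48 followed, with interactions of 0.20, 0.20, 0.22 and 0.16 and P-values of 0.0523, 0.0916, 0.0963 and 0.101.

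**Figure D3:**
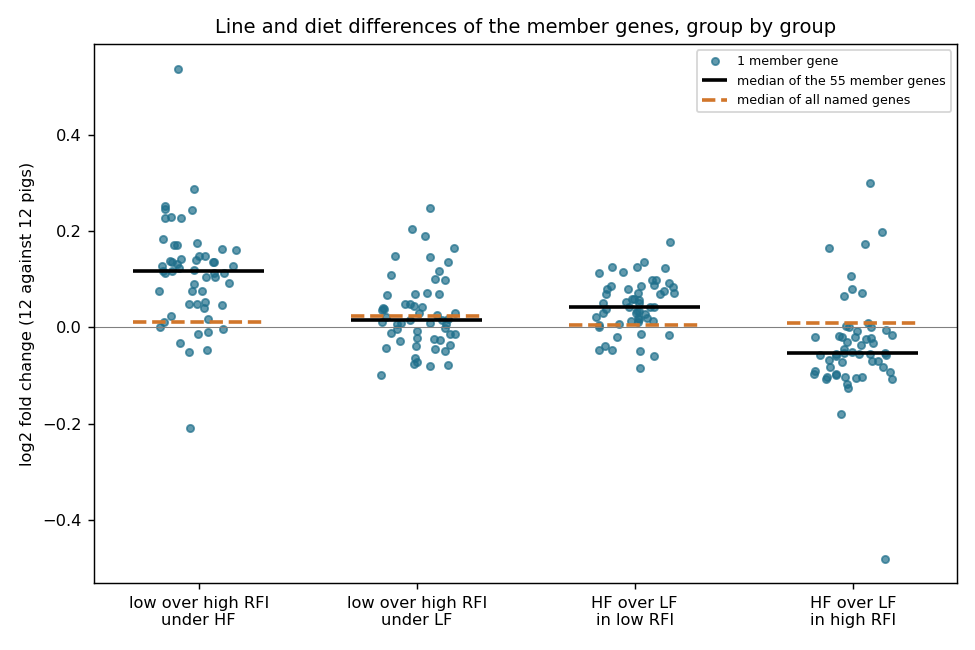
Log2 fold changes of the 55 member genes for line within each diet and for diet within each line, 1 point per gene from 12 against 12 pigs; black bars are the medians of the members and dashed bars those of all named genes. Member medians are 0.12 and 0.02 for line under HF and LF, and 0.04 and -0.05 for diet in low and high RFI pigs. The points farthest out are MRPL42 and, for the lowest value under HF and the highest in high RFI pigs, MRPS2.

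Averaged over the lines, diet left no member past the criterion of the methods, where 0.267% of all genes and 0.245% of all probes passed it. The median was 0.00 with 33 of 55 genes higher under HF (58.1% of all named genes). No member reached an unadjusted 0.05 in limma (1.94% of all genes), and analysis of variance gave no call either. The lowest P-values were those of MRPL13 (0.0998, log2 fold change 0.12), MRPS21 (0.190, 0.08), MRPS6 (0.203, -0.07), MRPL19 (0.285, -0.08) and MRPS26 (0.322, 0.08). These values are of both signs and their SEs, 0.055 to 0.080, are close to them in size.

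Beyond the groups, most members rose and fell together from pig to pig. With the group means removed, the median correlation over the 1485 pairs of member genes was 0.48 across 48 pigs, and 77.8% of pairs were above 0; over all pairs of named genes the median was 0.02 and 52.3% were above 0. Differences between slides and scan days were not removed. For 45 genes the median correlation with the other members was above 0.3, highest for MRPS10 at 0.68 and MRPL41 at 0.67. The arrays, 1 per pig, differed in signal, and this moved with the members too. The median correlation of a member with the signal over background of the array was 0.32, beside 0.03 over all named genes. Its part in the co-variation was not tested.

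A few members ran against the others. MRPL40 had a median correlation of -0.46 with the other members, MRPL13 of -0.43, MRPS26 of -0.41, MRPL22 of -0.33 and MRPS18A of -0.19. MRPS36, MRPS17, MRPS2, MRPL42 and MRPL14 were near 0, between -0.00 and 0.07. These 5 genes that ran against the rest are proteins of both subunits and of both lines of descent, and none of them was called for line or diet. MRPL13 was the dimmest member, as said above.

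**Figure D4:**
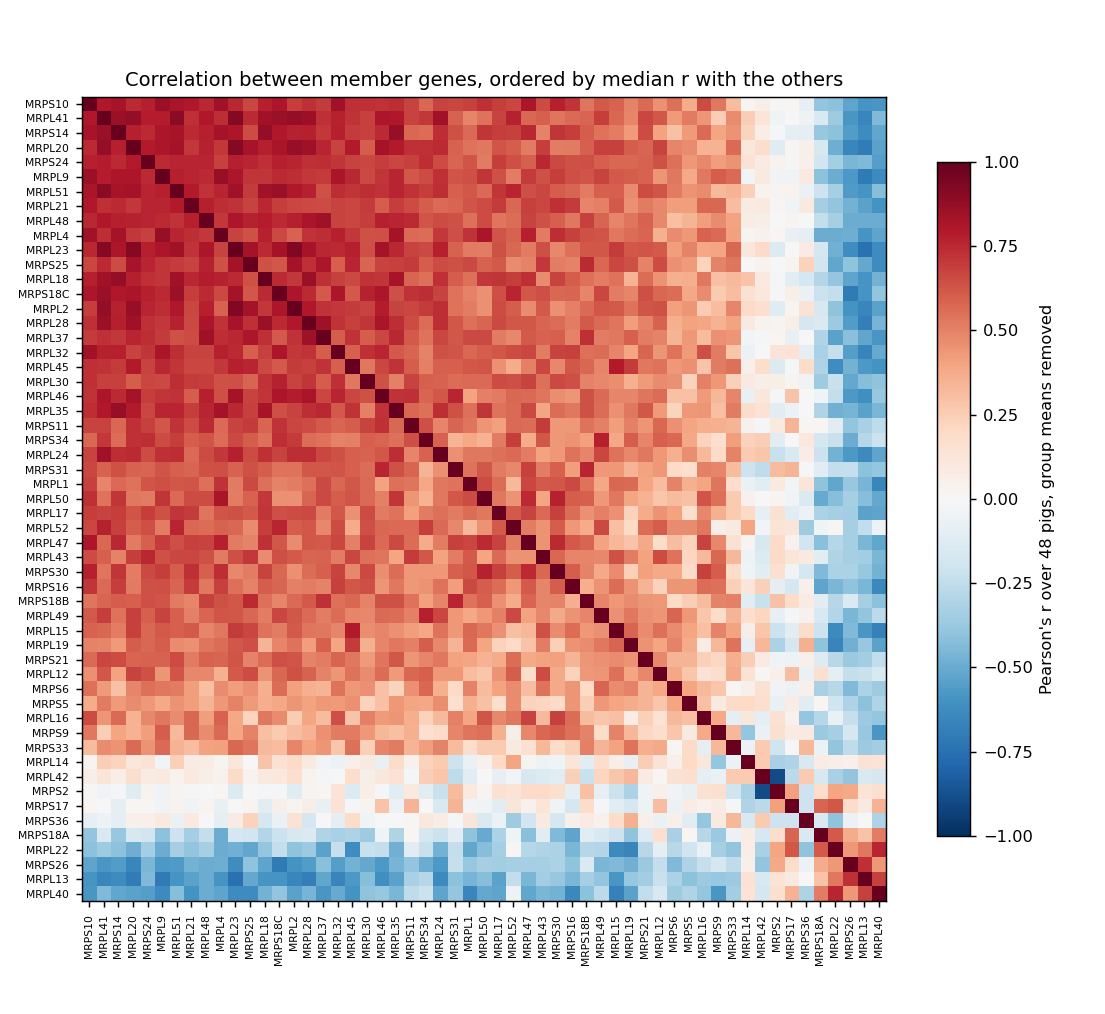
Pearson's r between each pair of the 55 member genes over 48 pigs after the group means were removed, from -1 (blue) to 1 (red), with the genes ordered by their median r with the others. The 45 genes with a median r above 0.3 form a mostly red block, and MRPS18A, MRPL22, MRPS26, MRPL13 and MRPL40 at the end of the order are mostly blue against it.

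Red cell markers moved against the members. The 11 markers measured, among them HBB, ALAS2, SLC4A1 and AHSP, had a median correlation of -0.36 with the members, and 48 of 55 members were negative. T cell markers (8 genes such as CD3D and LCK) had 0.35, B cell markers (5 genes) 0.29, natural killer and cytotoxic markers (5 genes) 0.26 and PTPRC, the pan-leukocyte antigen CD45, 0.40. Neutrophil (6 genes), monocyte (5 genes) and platelet markers (4 genes) had 0.06, 0.05 and -0.14. The genes that ran against the other members had the opposite sign with the red cell markers: MRPL40 had 0.64, MRPL13 0.49, MRPL22 0.47, MRPS26 0.36 and MRPS18A 0.31.

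Some of these markers differed between the lines, so the values of all lists stand beside the line effect. The red cell markers had a median line log2 fold change of 0.11 with 10 of 11 higher in low RFI pigs, -0.04 under HF with 3 higher and 0.33 under LF with 11 higher, where the members had 0.12 under HF and 0.02 under LF. SLC4A1, the anion exchanger of the red cell membrane, passed the adjustment for line (0.26, adjusted P-value 0.0400) and under LF (0.50, adjusted P-value 0.00941). The mean level of the red cell markers per pig ran from 2.59 to 4.01 in low RFI pigs (median 3.31) and from 2.12 to 3.93 in high RFI pigs (median 3.38), so the pigs of the lines overlapped widely. Of the T cell markers 7 of 8 were positive (median 0.16), and LCK passed the adjustment (0.21, adjusted P-value 0.0335). Their mean level ran from 1.69 to 2.23 in low RFI pigs and from 1.47 to 2.40 in high RFI pigs, and 23 of 24 low RFI pigs were above the high RFI median. B cell markers were lower for 5 of 5 genes with a median of -0.23, and MS4A1 was among those that passed (-0.36, adjusted P-value 0.00108). The T cell median was 0.20 under HF and 0.12 under LF, and that of the B cell markers -0.12 and -0.32. Neutrophil markers had a median of -0.41 with 2 of 6 higher and CXCR2 called lower. Under HF it was -0.68 with 0 of 6 higher and 4 at a P-value under 0.05, and under LF -0.03 with 2 higher. Monocyte markers had a median of -0.08 with 2 of 5 higher and CD14 called lower. Natural killer markers (median 0.13, 4 of 5 higher) and platelet markers (median -0.00, 2 of 4 higher) had none called. Under HF and LF the medians were -0.08 and -0.08 for monocyte, 0.15 and 0.07 for natural killer and -0.09 and 0.10 for platelet markers. PTPRC had a line log2 fold change of -0.06 (SE 0.076, P-value 0.415). In these pigs the authors counted more red cells in the low RFI line. They reported no line difference in the numbers of neutrophils, lymphocytes or monocytes. The part of blood cell makeup in the line difference of the members was not tested.

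For genes with several probes, the probes showed how far a value depends on the sequence read. The MRPS18C probes A_72_P278494 and O13568 carry the same 60 bases and so give a technical repeat on each array. Capitals mark the stop codon TAA that ends 17 codons read in frame 2.
MRPS18C probes A_72_P278494 and O13568: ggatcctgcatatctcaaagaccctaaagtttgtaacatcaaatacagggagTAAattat
Over 48 pigs their readings correlated with r = 0.88 after removal of group means, with an SD of the difference of 0.089, and both gave a line log2 fold change of 0.06 and 0.07. Another identical pair, of MRPL18, had r = 0.87 and an SD of 0.121.

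The MRPL40 probes read different stretches and did not move together. Capitals mark the stop codon TAG that closes 16 codons in frame 1 of the first probe, and of the second probe bases 1 to 30 are shown, with no part singled out.
MRPL40 probe O12799: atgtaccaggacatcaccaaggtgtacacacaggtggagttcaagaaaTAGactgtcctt
MRPL40 probe A_72_P153326, first 30 bases: atattaatcctcctttgaaacacgatactc
The probes correlated with r = -0.57 across the 48 pigs. O12799 had a median correlation of 0.65 with the other member genes and of -0.47 with the red cell markers, like most members. A_72_P153326 had -0.58 and 0.72. The place of MRPL40 against the other members thus came from 1 of its probes. Of the genes with several probes, MRPL14 also had probes that were unrelated (r = -0.00), with A_72_P397013 at 0.45 and O14234 at -0.20 with the other member genes, while the other 11 genes had positive correlations between all their probes, the lowest being 0.24 in MRPL24.

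**Figure D5:**
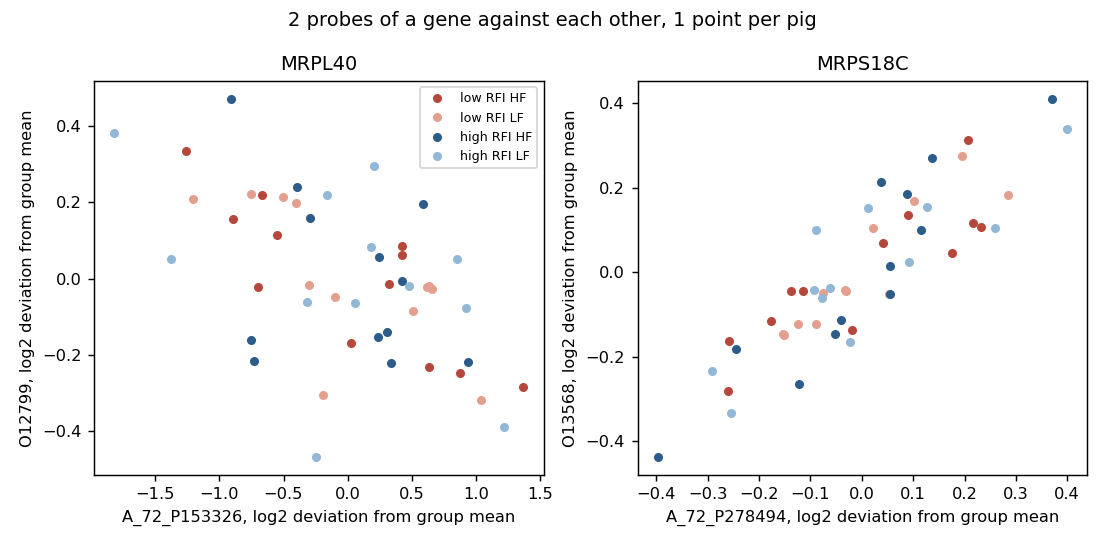
Readings of both probes of MRPL40 (left) and of MRPS18C (right) against each other, as log2 deviations from the group mean, 1 point per pig and colours for the groups. The MRPL40 probes, of different sequence, run in opposite directions (r = -0.57), and the MRPS18C probes, of identical sequence, lie on a rising line (r = 0.88).

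Between probes of the same gene the line effect differed most in MRPL21, where A_72_P073751 had -0.01 and O12769 had 0.14, although the probes correlated with r = 0.69. The next were MRPL52, MRPL18, MRPL24 and MRPL2, with ranges of 0.07, 0.06, 0.05 and 0.04 between their probes. For MRPL40 the line effects of both probes were of the same sign, at 0.07 and 0.11, in spite of their opposite course over pigs.

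The table of RefSeq gene names assigns another 21 retained probes to mitochondrial ribosomal proteins, although the array files give them a gene number or the name ICT1 and the rule leaves them out. Their median line log2 fold change was 0.06, with 17 of 21 higher in low RFI pigs (58.6% of all probes). It was 0.11 under HF with 20 higher (51.1%) and -0.02 under LF with 8 higher (53.8%). Several of these 21 probes share a gene, and those of MRPL14, MRPL32, MRPL43 and MRPL46 belong to genes that are also members. They are thus not 21 independent observations, nor independent of the members. Only A_72_P429634, assigned to MRPL33, passed the adjustment over all probes, where 2.77% of all probes passed. It read -0.51 to 0.24 (median -0.19) in the low RFI pigs and -0.68 to -0.03 (median -0.44) in the high RFI pigs. Its log2 fold change was 0.30 (SE 0.058, adjusted P-value 0.000839), 22 of 24 low RFI pigs were above the high RFI median and 9 were above every high RFI pig. The other probe assigned to MRPL33, A_72_P078271, had -0.04 (SE 0.074), so the probes of this gene differ.

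Other genes of mitochondrial translation were followed in the same fit, in which 64.0% of all named genes were positive and 3.33% were called for line. No test of a difference from the ribosomal proteins was made. Of 35 measured translation factors, synthetases and RNA modifying enzymes of the mitochondrion, 26 were positive for low over high RFI, the median being 0.03, and KARS, the lysyl-tRNA synthetase that serves both cytosol and mitochondria, was the only one called (0.30, SE 0.052, adjusted P-value 0.000194). Under LF, 5 of the 35 were higher and 1 was lower at a P-value under 0.05, beside 7.58% of all genes in either direction. Of 16 assembly factors of the mitochondrial ribosome 13 were higher, with a median of 0.04 and none past the adjustment. TFB1M, which methylates the RNA of the small subunit, had the lowest P-value there (0.15, adjusted P-value 0.0667). Ribosomal proteins of the mitochondrion with other names, DAP3, PTCD3, CHCHD1, GADD45GIP1 and ICT1, were higher in 5 of 5 genes with a median of 0.05 and none called. In 7 genes of mitochondrial DNA transcription and 7 nuclear regulators of mitochondrial genes, 4 and 5 were higher, with none called.

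The 70 cytosolic ribosomal proteins, which build the other ribosome of the cell, had the same direction. The log2 fold change of low over high RFI was positive for 68 of them, its median was 0.09, and the median was 0.14 under HF and 0.04 under LF. RPL38, RPL14, RPL35 and RPS25 were called, with log2 fold changes of 0.87, 0.41, 0.60 and 0.29, larger than that of any mitochondrial member that passed. The 4 genes are 5.71% of the list, beside 1.63% of all genes upward, and 64.0% of all genes were positive. No test of a difference between the lists was made.

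Within the slides the median line difference of the 55 genes was -0.00, 0.05, 0.18, 0.06, 0.02 and 0.11 on slides 1 to 6, with 26, 37, 50, 40, 34 and 45 genes higher in low RFI pigs. Over all named genes the medians on these slides were -0.02, 0.05, 0.00, 0.02, -0.02 and 0.06, and 43.5%, 60.6%, 50.9%, 57.0%, 44.4% and 64.3% of genes were higher. On slide 2 the member median was thus close to that of all genes. Slide 3, which holds high RFI HF replicate 1, had the highest value. Without that pig the median over all pigs was 0.05, again with 50 of 55 genes positive. Across the 3 scan days, the last of which holds slide 6 alone, the member medians were 0.07, 0.04 and 0.11, beside 0.02, 0.00 and 0.06 over all named genes.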

How the data were processed

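Whole-blood RNA of 48 pigs was hybridized to 48 single-colour arrays (12 pigs per group). The authors deposited scanner files with the median pixel intensity of each spot, its background and quality calls, and a table of log2 values for 37113 retained spots, made in R 3.0.2 per the labels. On 47 arrays the deposited log2 value is the log2 of the median intensity minus the array median (largest difference 4.97e-14); the column of high RFI HF replicate 1, which repeats 1 value after 24 entries, was rebuilt. A gene is the mean of its probes; symbols came from the array files and a RefSeq table, and 18138 retained spots have none. Line, diet and interaction were contrasts of 1 limma 3.58.1 fit (R 4.3.3, lmFit and eBayes) over all spots or genes, with Benjamini-Hochberg adjustment over all of them; the script was tested on simulated data. The samples are separate animals.

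The members and lists were chosen with earlier results of these data known. Genes are named when a probe passed the criterion of the methods for line, or when among the 10 highest and 10 lowest line effects, the 5 lowest P-values for diet and for interaction, or the 5 largest differences between probes. Genes named for their correlation with the other members, MRPL38, MRPL33 and genes of other lists were named after their values were seen. Alternatives were 3 other signal treatments, all non-control spots, spots well above background, blocks for slide, scan day or replicate number, a robust prior with a trend, analysis of variance, the brightest probe and 3 added after seeing the data: the column as deposited and leaving out high RFI HF replicate 1 or 7. Values of some single marker genes are not reported here. The precision is limited by 12 arrays per group. Tables were made with Python 3.11.15, numpy 2.4.6, pandas 2.3.3 and matplotlib 3.10.9.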

Additional observations from a re-analysis of the deposited data

Results flagged for a closer look

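A probe of MRPL38, a large subunit protein, was not among the spots the authors retained, although it was well above background on 48 of 48 arrays, at a median of 5.62 times the local background. In the fit to all non-control spots its line log2 fold change was 0.02 (SE 0.043, P-value 0.707). The other 7 unretained MRP probes were well above background on 1 to 17 arrays.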

How the results depend on the processing

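The median line log2 fold change of the members and the number of positive genes kept their direction under the signal treatments, blocks and filters tried, at 0.05 to 0.07 and with 49 or 50 of 55 genes (53 of 58 with all non-control spots, 49 of 54 with spots well above background). With the repeated column as deposited, the values were a median of 0.00, 28 genes higher, no gene called, 1 gene and 1 probe past the criterion, no probe called, medians of -0.0138 for line under HF and 0.0835 for diet in high RFI pigs. With all non-control spots 1 gene was called, as MRPL9 no longer passed. The brightest probe gave 0 genes called and leaves 2 of 70 cytosolic ribosomal proteins called. Without high RFI HF replicate 1 or 7, 1 and 2 genes and 1 and 2 probes were called.

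Probes called were 3 with the processed signal at the array median, 4 at the 75th percentile, 3 with normexp and 0 with all non-control spots. The shares of all probes and genes called are not given for the alternative settings. The counts thus cannot tell a change in the members from a change in all features. With the replicate number as a block 4 probes and 3 genes were called; each number lies on 1 slide, so the block also takes in the slide. Mean correlations of same-numbered pigs ran from -0.10 to 0.54 and every pair was above 0.1 for replicates 7, 10 and 11 alone, so the numbers were not taken as pairs. The block added MRPL15 to the genes called. Of 405 pairs of named gene and setting, 376 kept direction and side of the threshold. Reversals under the column as deposited were MRPS17 -0.0412, MRPL37 -0.12, MRPL19 -0.10, MRPL28 -0.10, MRPS9 -0.11, MRPL13 -0.15, MRPS26 -0.00141, MRPL48 -0.0779, MRPL21 -0.0170, MRPL52 -0.0356 and MRPL2 -0.0143. Others were MRPS2 at 0.0570 and 0.0522 with processed signals and at 0.133 without high RFI HF replicate 7. Without replicate 1 MRPS2 stayed negative, at -0.0407. MRPS17 was reversed at -0.00618, -0.0110 and -0.00373 with other signals, and MRPL21 at -0.0122 with the brightest probe. MRPL19 was reversed in 1 of the fits without replicate 1 or 7, at -0.00967, and kept its sign in the other, at 0.00791. The cause was not tested.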
